A study of Mus musculus with 6 samples.

Results

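The genes described here encode heterogeneous nuclear ribonucleoproteins (hnRNPs) and serine/arginine-rich (SR) proteins, the best-known families of splicing regulators. Their probes were taken by name. A non-control probe was a member where its gene name on the array began with Hnrnp or Hnrp, or with Srsf or Sfrs followed by a digit. This gave 63 of 55660 probes, carrying 32 of 34807 gene names. Among the 59 probes that could be tested, 37 probes of 20 genes were for hnRNPs and 20 probes of 10 genes for SR proteins. Sfrs18, with the other 2 probes, is listed in RefSeq as Pnisr, and Hnrpdl and Hnrpll are listed there as Hnrnpdl and Hnrnpll.

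RNA came from erythroid progenitors of mouse fetal liver at stage E-14.5 of embryonic life, isolated with a commercial selection kit. The cells were infected with a retrovirus and kept ex vivo for 3 days in medium with erythropoietin, dexamethasone and conditioned medium containing kit ligand. In the shExosc8 group (3 samples) the virus expressed a short hairpin RNA against Exosc8, a core subunit of the RNA exosome, and in the shControl group (3 samples) a hairpin against luciferase, a gene that mouse cells lack. Each sample was read on a single-colour Agilent array with probes of 60 bases. No label ties the replicates to different animals or cultures, and the p-values therefore reflect variation between these samples alone, some of which may be technical.

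SR proteins bind exonic sequences through RNA recognition motifs and recruit the spliceosome through a domain rich in arginine and serine. hnRNPs coat nascent transcripts, and many of them repress the use of nearby splice sites. Many genes of both families hold exons or introns whose inclusion brings in a premature stop codon, so that the transcript is degraded by nonsense-mediated decay. The RNA exosome degrades RNA from the 3′ end and takes part in both nuclear RNA surveillance and cytoplasmic decay. The comparison here asks how the transcripts of these genes, and different probes of 1 gene, stood in cells with less Exosc8. Probes were compared by coordinate, and their place in exons, introns or untranslated regions was not analysed here.

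Signals are given as scaled signal, the probe's signal divided by the 75th percentile of its array, and the log2 fold change is that of shExosc8 over shControl with its standard error. The Exosc8 probe had scaled signals of 1.38, 1.37 and 1.97 in shExosc8 arrays and of 3.37, 3.35 and 3.55 in shControl arrays. The groups did not overlap, and the log2 fold change was -1.14 ± 0.17 (n = 3 each; limma adjusted p = 0.00606). Arrays of 1 group correlated at r = 0.985 to 0.997 and arrays of different groups at r = 0.953 to 0.978. The share of spots well above background was 67.3% on shControl replicate 2 and 43.1% to 49.3% elsewhere. All 14 erythroid markers on the array were well above background in both groups, and their summed scaled signal was 520 to 815 in shExosc8 arrays and 364 to 448 in shControl arrays, with 6 higher and 1 lower. The summed scaled signal of 10 megakaryocyte markers was 56.4 to 80.8 in shExosc8 arrays and 6.12 to 8.63 in shControl arrays, with 10 of 10 higher. That of 12 neutrophil and monocyte markers was 48.1 to 62.7 in shExosc8 arrays and 13.2 to 16.2 in shControl arrays, with 12 of 12 higher. Mast cell markers summed to 2.74 to 4.48 in shExosc8 arrays and 0.911 to 1.31 in shControl arrays, with 4 of 7 higher, while Fcer1a and Ms4a2 were not well above background on any array. Macrophage markers summed to 0.683 to 1.01 in shExosc8 arrays and 0.396 to 0.520 in shControl arrays, with 3 of 10 higher. Hepatocyte markers summed to 0.275 to 0.531 in shExosc8 arrays and 0.0975 to 0.201 in shControl arrays, with 3 of 8 higher. The part of these markers in the values below was not tested, and in these bulk samples fewer cells of a type and less RNA per cell cannot be told apart. On the slide, row 2 held all shExosc8 arrays and row 1 all shControl arrays, so row and group cannot be told apart.

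Of the 63 hnRNP and SR probes, 59 probes of 31 genes were tested, having been well above background on every array of 1 group or both. Of these, 0 were higher and 2 were lower in shExosc8 cells at an adjusted p under 0.05, in the hnRNP A/B gene Hnrnpa0 and in the SR gene Srsf3. Among all 24836 tested probes 27.8% were called, 14.7% higher and 13.1% lower, against 3.39% of the hnRNP and SR probes. At an unadjusted p under 0.05 limma passed 12 hnRNP and SR probes, which is 20.3% of them, against 43.8% of all tested probes. The groups did not overlap for 18 of the 59 probes, or 30.5%, against 12554 of the 24836 tested probes, or 50.5%. Signal was lower in shExosc8 arrays for 15 of those 18 and for 7140 of those 12554. Only 1 probe, the more 3′ probe of Hnrnph3, passed the filter on low signal through the shControl group alone.

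The differences were small on either side of 0. The log2 fold changes of the 59 probes ran between -0.65 and 0.33 with a median of -0.18, and 47 of them were below 0. Over all tested probes the median was -0.08, and 56.8% were below 0. The fullest 0.1-wide bin, between -0.3 and -0.2, held 16 of the 59. No hnRNP or SR probe differed by 2-fold or more, against 13.3% of all tested probes. The 95% interval of the fold change lay wholly within 2-fold for 57 of the 59, or 96.6%, against 65.6% of all tested probes. It lay within 1.5-fold for 39, or 66.1%, against 30.3%. The standard errors were also smaller, with a median of 0.12 for the hnRNP and SR probes and 0.16 for all tested probes.

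The position of the whole set depended on how arrays were scaled. Taking the 75th percentile over all probes instead of those well above background moved the median of all tested probes to -0.23 and that of the hnRNP and SR probes to -0.32, and 11 of these 59 were then lower, at a setting that called 37.8% of all tested probes. The median of the hnRNP and SR probes minus that of all tested probes was -0.09, a gap that a change of scaling constant cannot alter. Under settings that can alter it, the gap was -0.05 with normexp background correction and quantile normalization, -0.19 with no filter on dim probes and -0.05 to -0.13 on leaving out 1 array. The number of hnRNP and SR probes higher in shExosc8 cells was 0 under each of the alternative settings run. By array, the median of the 59 probes relative to the shControl mean was -0.21, -0.16 and -0.07 in shExosc8 replicates 1, 2 and 3, against 0.04, -0.04 and -0.00 in the shControl replicates. Over all tested probes the medians were -0.09, -0.03 and -0.08 in shExosc8 replicates 1, 2 and 3. In shExosc8 replicate 3, the shExosc8 array nearest to the controls by the median of the 59 probes, these were thus no lower than all tested probes. Without shExosc8 replicate 3, 12 of the 59 probes were lower, where 43.2% of all tested probes were called. Without shExosc8 replicate 1 or shControl replicate 1 the number lower was 0, where 11.5% and 12% of all tested probes were called, so the count moved with that of the whole array.

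Hnrnpa0, an hnRNP of the A/B group that binds AU-rich sequences in mRNAs, had the hnRNP probe that passed the test. Its sequence lies on the minus strand of mm9 at chr13:58229242-58229301, and the second probe, 1871 bases further 3′, at chr13:58227371-58227430. Both are shown because they gauge 1 gene at separate places. The first is given whole and the second by its first 30 bases, without capitals as no stretch is singled out.
Hnrnpa0 probe 1: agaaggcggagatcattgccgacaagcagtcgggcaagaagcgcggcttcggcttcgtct
Hnrnpa0 probe 2: ggtgcaagttgtaaaacaaaatatctgtat

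Hnrnpa0 probe 1 had scaled signals of 0.563, 0.580 and 0.655 in shExosc8 arrays, against 1.00, 0.905 and 0.885 in shControl arrays. All 3 shExosc8 values were below every shControl value. The log2 fold change was -0.64 ± 0.11, or 0.643 times the control level (n = 3 each; limma adjusted p = 0.0118). Probe 2 had 3.24, 3.14 and 3.69 in shExosc8 arrays, against 4.42, 3.87 and 4.46 in shControl arrays, and again the groups did not overlap. Its log2 fold change of -0.34 did not pass (adjusted p = 0.0772), and the 2 probes differed by 0.30 ± 0.10 (adjusted p = 0.160). The call of probe 1 was lost without shExosc8 replicate 1 (-0.59, limma adjusted p = 0.0551) and without shControl replicate 1 (-0.58, adjusted p = 0.0551). It was also lost with slide column as a block (-0.63, adjusted p = 0.265) and with no filter on dim probes, settings that called 1.64% and 3.07% of all probes.

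Srsf3, the smallest SR protein and a regulator of splicing and mRNA export, had the SR probe that passed. It is among the SR genes known to limit their own level through an exon that leads to decay. Its 3 probes lie on the plus strand of mm9, at chr17:29173333-29173392, chr17:29178485-29178544 and chr17:29180193-29180252. All match coding transcripts and also a noncoding variant that RefSeq lists for the gene, so the array cannot tell these forms apart. The sequences are shown because each spans a different stretch of the same locus, the first probe whole and the others by their first 30 bases.
Srsf3 probe 1: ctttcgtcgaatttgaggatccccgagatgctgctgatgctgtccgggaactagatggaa
Srsf3 probe 2: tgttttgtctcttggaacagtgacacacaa
Srsf3 probe 3: ccagatgagatttaggtatcaatctattcc

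Srsf3 probe 2 had scaled signals of 4.29, 4.24 and 4.24 in shExosc8 arrays, against 5.85, 5.20 and 5.37 in shControl arrays. The groups did not overlap, and the log2 fold change was -0.36 ± 0.10 (n = 3 each; limma adjusted p = 0.0409). Probe 1 had 5.60, 5.34 and 6.33 in shExosc8 arrays, against 7.12, 6.54 and 5.98 in shControl arrays, with shExosc8 replicate 3 above shControl replicate 3. Probe 3 had 0.106, 0.0944 and 0.108 in shExosc8 arrays, against 0.133, 0.114 and 0.111 in shControl arrays, without overlap. The log2 fold changes of probes 1 and 3 were -0.19 and -0.21, with adjusted p of 0.280 and 0.218. No pair of the 3 probes passed the threshold, the largest difference being -0.18 between probes 1 and 2 (adjusted p = 0.413). The call of probe 2 was lost on leaving out any 1 array other than shExosc8 replicate 3, with adjusted p of up to 0.146, and with normexp and quantile normalization (-0.28, adjusted p = 0.120). It was also lost with no filter on dim probes, with replicate number as a block (-0.36, adjusted p = 0.0682) and with slide column as a block (-0.38, adjusted p = 0.435).

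Among the SR proteins with a pair of RNA recognition motifs, 0 of 8 probes of 5 genes passed in limma, 1 had an unadjusted p under 0.05, and the median log2 fold change was -0.15. That 1 was the probe of Srsf4, with 1.36, 1.26 and 1.43 in shExosc8 arrays, against 1.74, 1.74 and 1.53 in shControl arrays. Its groups did not overlap, and the log2 fold change was -0.31 ± 0.11 (adjusted p = 0.0835). Srsf1, the founding member of the family, had 3 probes at 0.08, -0.14 and -0.30 in 5′ to 3′ order. The most 3′ of them had 1.28, 1.16 and 0.982 in shExosc8 arrays, against 1.43, 1.35 and 1.43 in shControl arrays, without overlap (adjusted p = 0.121). The most 5′ had 2.78, 3.44 and 2.81 in shExosc8 arrays, against 2.87, 2.92 and 2.73 in shControl arrays, which overlapped. In Srsf5, at -0.16, and in both probes of Srsf6, at -0.23 and -0.13, the spread of the control arrays was wide. Srsf5 had 4.66, 4.94 and 3.66 in shExosc8 arrays, against 5.84, 5.56 and 3.59 in shControl arrays, replicate 3 being the lowest of each group. The more 3′ probe of Srsf6 had 0.888, 0.999 and 0.788 in shExosc8 arrays, against 1.16, 1.01 and 0.772 in shControl arrays, again lowest in replicate 3 of each group. Srsf9 was the 1 gene of this group whose only probe stood above 0. It had scaled signals of 2.38, 2.75 and 2.44 in shExosc8 arrays, against 2.16, 2.04 and 2.22 in shControl arrays. The groups did not overlap, yet its log2 fold change of 0.23 did not pass (adjusted p = 0.147). This probe, too, matches a noncoding variant of its own gene.

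The SR proteins with a single recognition motif had 1 of 12 probes of 5 genes lower, that of Srsf3, and all 12 log2 fold changes were below 0, with a median of -0.27. Srsf2, which acts in the nucleus and does not shuttle, had 2 tested probes. The more 3′ one had scaled signals of 1.53, 1.44 and 1.499 in shExosc8 arrays, against 1.84, 1.74 and 1.85 in shControl arrays. These did not overlap, and the log2 fold change of -0.28 did not pass (adjusted p = 0.0711). Its more 5′ probe stood at -0.15 with overlapping groups. Srsf7, which contains a zinc knuckle beside its recognition motif, had a 5′ probe with 5.57, 5.99 and 5.72 in shExosc8 arrays, against 7.22, 6.94 and 6.53 in shControl arrays. These did not overlap, and its log2 fold change was -0.26 (adjusted p = 0.0975), while its other probe stood at -0.07. Srsf10, which represses splicing when dephosphorylated, had 3 probes at -0.39, -0.20 and -0.38. Its middle probe had 0.495, 0.503 and 0.532 in shExosc8 arrays, against 0.616, 0.552 and 0.593 in shControl arrays, and was the 1 of the 3 without overlap (adjusted p = 0.175). Srsf11 stood at -0.47 and -0.30 on its 2 tested probes. The more 3′ one had 0.801, 0.860 and 1.22 in shExosc8 arrays, against 1.19, 1.08 and 1.20 in shControl arrays, where shExosc8 replicate 3 lay above all controls. Without that replicate both Srsf11 probes were called lower (-0.73 and -0.48, adjusted p = 0.0180 and 0.0186). For all 20 Srsf probes the median was -0.22 with 18 below 0, against 56.8% below 0 over all tested probes.

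Both probes of Srsf12 were not well above background on all arrays of either group, and the same held for a probe each of Srsf2 and Srsf11. The Srsf2 probe is shown because it was designed for a separate Ensembl transcript of the gene, 579 bases 3′ of the first Srsf2 probe, on the minus strand at chr11:116712806-116712865. Only its first 30 bases are given.
Srsf2 probe 2: gtggcaaaggaattgcaattaagaagcaat

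Srsf2 probe 2 had scaled signals of 0.00955, 0.0131 and 0.00802 in shExosc8 arrays, against 0.00996, 0.0121 and 0.00638 in shControl arrays. It was well above background on 1 of 3 shExosc8 arrays and 2 of 3 shControl arrays, so a difference was not detectable with these arrays. The Srsf11 probe, also designed for a separate transcript, was well above background on 0 of 3 shExosc8 and 2 of 3 shControl arrays.

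In the hnRNP A and B group, which bind RNA through a pair of recognition motifs and a glycine-rich tail, 1 of 13 probes of 4 genes was lower, that of Hnrnpa0. Hnrnpa1, an abundant shuttling repressor of splice sites, had 2.97, 3.35 and 2.68 in shExosc8 arrays, against 3.83, 3.21 and 3.49 in shControl arrays on its more 3′ probe, and the groups overlapped. Its probes stood at -0.20 and -0.23, both matching noncoding relatives of the gene (Gm5643 for both, Gm10052 for 1 of them). Hnrnpa2b1, which is also known for sorting RNAs, stood at 0.02 and -0.21. Its 5′ probe had 6.49, 6.42 and 6.66 in shExosc8 arrays, against 6.68, 6.71 and 5.96 in shControl arrays, with overlap. Hnrnpab and Hnrnpd, with the D-like gene Hnrpdl, had 0 of 5 probes called in limma, 1 with an unadjusted p under 0.05, and a median of -0.18. That 1 was the 3′ probe of Hnrpdl, with 0.628, 0.588 and 0.544 in shExosc8 arrays, against 0.806, 0.732 and 0.672 in shControl arrays, without overlap (adjusted p = 0.0840). The 5′ probe of Hnrnpab had 12.6, 11.9 and 14.25 in shExosc8 arrays, against 14.8, 14.6 and 14.27 in shControl arrays. Its lowest control value was barely above shExosc8 replicate 3, and the log2 fold change was -0.18 (adjusted p = 0.260). Hnrnpd, the AU-rich element binding protein AUF1, stood at -0.08 with overlapping groups. Probes described as hnRNP-like also stood under names outside the rule. That of a predicted Hnrnpa3-like transcript was not tested, and none of the others passed. That of an Hnrnpa1-like transcript stood at -0.19. That of a predicted Hnrnpa2b1-like transcript stood at -0.18, without overlap. It maps to chr6:51413302-51413361, on the strand of both Hnrnpa2b1 probes and 5′ of them, and so may gauge Hnrnpa2b1 itself.

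The other hnRNP groups held no probe called by limma, and at an unadjusted p under 0.05 there was 1 probe of hnRNP F and H and 1 of hnRNP U. Hnrnpc, which binds uridine tracts and long nascent transcripts, had probes at -0.13 and -0.39, the second with 10.2, 9.49 and 13.86 in shExosc8 arrays, against 14.3, 13.91 and 15.0 in shControl arrays. Those values did not overlap, with shExosc8 replicate 3 close to the controls (adjusted p = 0.119). The G-tract binding hnRNPs F and H had 6 probes of 4 genes between -0.37 and -0.02, with the 5′ probe of Hnrnpf lowest. It had 0.334, 0.283 and 0.397 in shExosc8 arrays, against 0.428, 0.466 and 0.411 in shControl arrays, without overlap (adjusted p = 0.107). Hnrnph1 (-0.07) and Hnrnph2 (-0.02) lay close to 0, and the probes of Hnrnph3 stood at -0.29 and -0.25 (adjusted p = 0.461 and 0.226). The genes of hnRNP K, L, L-like, M and R had 7 probes between -0.28 and 0.09, with overlapping groups in all of them. Hnrnpl, which binds CA-rich sequences, was the lowest (adjusted p = 0.219), with 0.141, 0.136 and 0.194 in shExosc8 arrays, against 0.190, 0.186 and 0.187 in shControl arrays. Here shExosc8 replicate 3 was above all controls. The 3 probes of Hnrnpk, which binds C-rich sequences, stood at -0.08, -0.08 and 0.09, Hnrnpm at -0.09 and Hnrnpr at -0.06, while Hnrpll, a relative of Hnrnpl known from lymphocytes, stood at -0.14 (adjusted p = 0.353). Hnrnpu, which binds chromatin-associated RNA, had 2.31, 2.25 and 2.45 in shExosc8 arrays, against 2.74, 2.74 and 2.99 in shControl arrays. The groups did not overlap, and the log2 fold change was -0.27 (adjusted p = 0.0885).

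Different probes of 1 gene were then compared within each array, which removes the scaling between arrays. For every pair the log2 signal of the upstream probe was subtracted from that of the downstream probe, and the groups were compared on that difference. Of 46 hnRNP and SR pairs in 18 genes, 4 differed, or 8.70%, against 7.23% of all 7660 pairs and 6.74% of the pairs with a RefSeq gene, so the share was near that of the array at large. The 4 pairs lay in 2 genes, Hnrnpa3 and Hnrnpul1. Hnrnpa3 alone gave 21 of the 46 pairs and 3 of the called ones, which share a probe. The other 17 genes gave 1 of 25, or 4%. At an unadjusted p under 0.05 there were 14 pairs, or 30.4%, against 21.6% of all pairs. Without Hnrnpa3 there were 5, or 20%. Among the 13 Srsf pairs in 7 genes 0 differed at the adjusted threshold and 1 had an unadjusted p under 0.05, that of Srsf1. The 95% interval lay within 2-fold for 41 of the 46 hnRNP and SR pairs, or 89.1%, against 81.9% of all pairs. It did so for all 13 Srsf pairs and for 16 of the 21 Hnrnpa3 pairs, or 76.2%. Over all called pairs the probe sorted as downstream was the higher one in 284 of 554. Pairs not on 1 chromosome and strand were not left out of this count.

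Hnrnpa3, a close relative of Hnrnpa1, had 7 probes over 6791 bases of chromosome 2, on the plus strand, and 3 of its 21 pairs differed. The first 2 probes lay at chr2:75500576-75500719 and chr2:75500962-75501666, mapping in pieces over 144 and 705 genomic bases, and probes 3, 5 and 6 at chr2:75503679-75503738, chr2:75504037-75504096 and chr2:75504692-75504751. Probes 2, 3, 5 and 6 are shown because the differing pairs join probe 2 with the others. Probe 2 is given whole and the others by their first 30 bases.
Hnrnpa3 probe 2: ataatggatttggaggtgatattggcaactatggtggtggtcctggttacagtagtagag
Hnrnpa3 probe 3: agtgtcaattagatgtacattcctgaggtc
Hnrnpa3 probe 5: ggcgctgacatgtggagagaatagatattt
Hnrnpa3 probe 6: ccccaaatatctgaactcaaattcggaatg

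Hnrnpa3 probe 2 had scaled signals of 0.661, 0.584 and 0.948 in shExosc8 arrays, against 1.11, 1.05 and 1.21 in shControl arrays. All shExosc8 values were below the controls, with replicate 3 nearest to them. Its log2 fold change of -0.65 ± 0.20 was the lowest of the 59 and just missed the threshold (limma adjusted p = 0.0520). It was called lower with the percentile over all probes (adjusted p = 0.0317), median centring (0.0422), normexp and quantile normalization (0.00464), the filter on all 6 arrays (0.0403), an intensity trend (0.0265), replicate number as a block (0.0345) and without shExosc8 replicate 3 (0.00566). On leaving out any other array the adjusted p was 0.0968 to 0.153, and with slide column as a block it was 0.392. Probe 6 had 0.199, 0.219 and 0.242 in shExosc8 arrays, against 0.167, 0.177 and 0.181 in shControl arrays, all shExosc8 values being higher. Its log2 fold change of 0.33 ± 0.12 was the highest of the 59, and it did not pass either (adjusted p = 0.0781). Probe 5 had 9.17, 9.38 and 10.9 in shExosc8 arrays, against 8.18, 7.97 and 8.61 in shControl arrays, again without overlap, at 0.25 (adjusted p = 0.144).

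The group effect differed between these probes. Relative to probe 2, probe 6 was higher in shExosc8 cells by 0.98 ± 0.16 on the log2 scale, a ratio of 1.97 (limma adjusted p = 0.0202). Probe 5 was higher by 0.90 ± 0.14 (adjusted p = 0.0182) and probe 3 by 0.72 ± 0.16 (adjusted p = 0.0481). In these 3 pairs all shExosc8 arrays had a larger downstream minus upstream difference than any shControl array. Probe 1, the other probe that maps in pieces, had 0.293, 0.271 and 0.405 in shExosc8 arrays, against 0.405, 0.381 and 0.370 in shControl arrays. Its groups overlapped through shExosc8 replicate 3. It stood at -0.28, and its differences from probes 5 and 6 of 0.52 and 0.60 did not pass (adjusted p = 0.0605 and 0.0550). Probes 4 and 7 stood at 0.05 and 0.15. The 2 probes nearest the 5′ end were below 0 and the 5 further 3′ above 0 with this scaling, while with the percentile over all probes probes 3 and 4 stood below 0 (-0.07 and -0.10). The number of hnRNP and SR pairs that differed was 10 without shExosc8 replicate 3, 9 of them in Hnrnpa3, where 13.7% of all pairs were called. It was 0 without shExosc8 replicate 1, shControl replicate 1 or shControl replicate 3, where 1.40%, 0.783% and 1.75% of all pairs were called. It was 2 without shExosc8 replicate 2 and 1 without shControl replicate 2, at 2.65% and 3.34% of all pairs. With slide column as a block no pair of the 7660 was called, and the differences of probe 2 from probes 6, 5 and 3 had adjusted p of 0.290, 0.279 and 0.345.

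Probes 1, 2 and 3 of Hnrnpa3 also match Gm6793, a related noncoding gene, so their signal may include it, and no noncoding gene was among the accessions listed for probes 5 and 6. Probe 5 shares a stretch of 30 bases with a probe of 1 other name on the array, the 1 hnRNP or SR probe of which this held, so its signal may include another transcript as well.

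Hnrnpul1, an hnRNP U-like protein, had 2 probes 14648 bases apart on the minus strand of chromosome 7, at chr7:26521707-26521766 and chr7:26507059-26507118, designed for different transcript variants. Their first 30 bases are shown because this pair differed.
Hnrnpul1 probe 1: ggtgtgagccattataccagcaaggagctt
Hnrnpul1 probe 2: ctcttcatacaggccaggcattttcctctc

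Hnrnpul1 probe 1 had scaled signals of 0.0876, 0.0746 and 0.114 in shExosc8 arrays, against 0.0801, 0.0867 and 0.0767 in shControl arrays. Probe 2 had 0.526, 0.467 and 0.699 in shExosc8 arrays, against 0.645, 0.708 and 0.679 in shControl arrays. The groups overlapped for both probes, and neither passed (0.16 and -0.28). The difference of probe 2 from probe 1 was smaller in shExosc8 arrays, at 2.59, 2.65 and 2.61 on the log2 scale, than in shControl arrays, at 3.01, 3.03 and 3.15. This did not overlap, and the change was -0.45 ± 0.09 (n = 3 each; limma adjusted p = 0.0386). With normexp and quantile normalization it was -0.15 (adjusted p = 0.508), and it passed among the leave-one-out fits only without shExosc8 replicate 3 (adjusted p = 0.0339). With slide column as a block it was -0.39 (adjusted p = 0.472).

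The remaining genes with several probes gave no pair past the threshold. The pair of Hnrpdl differed by -0.45 ± 0.13 (adjusted p = 0.0915), with probe 1 at 0.12 and probe 2 at -0.33. The outer probes of Srsf1 differed by -0.38 ± 0.14 (adjusted p = 0.192) and the pair of Hnrnpc by -0.26 ± 0.10 (adjusted p = 0.189). Of the 19 genes with at least 2 tested probes, 12 had all of them below 0, 0 had all above 0 and 7 were mixed. The probes shared a sign in 63.2% of these genes, against 74.0% of the 4761 gene names with several tested probes. Of those 4761 names, 2213 had all probes below 0 and 1309 had all above 0.

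In the authors' deposited table, 0 of the 59 probes had an adjusted p under 0.05, against 1680 of the 24836 tested probes. The smallest adjusted p among the 59 in the authors' deposited table was 0.0706, and the log2 fold changes there ran between -0.75 and 0.22. Their median there was -0.139, close to the -0.125 of all tested probes, so the gap between the medians was smaller than with the scaling used here. For 51 of the 59 the sign in the authors' deposited table was that found here.

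Related splicing genes outside the naming rule were counted by list. A list of hnRNPs under other names also held other RNA-binding proteins, among them Tia1 and Mbnl2. Of its 38 probes of 22 genes, 4 were higher and 5 lower, 23.7% in all against 27.8% of all tested probes. Rbmx, an X-linked hnRNP, had 0.312, 0.251 and 0.433 in shExosc8 arrays, against 0.739, 0.895 and 0.781 in shControl arrays, without overlap (log2 fold change -1.31 ± 0.21, limma adjusted p = 0.00866). Tia1, a U-rich sequence binder found in stress granules, was lower on both of its probes (-0.95 and -0.63). Ptbp3, a polypyrimidine tract binding protein expressed in blood cells, was higher on both of its probes (0.73 and 1.22), and Mbnl2 was higher on 1 of 3 (0.50).

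Of 43 probes of 27 SR-like genes and SR kinases, 1 was higher and 4 were lower, 11.6% in all against 27.8% of all tested probes. Clk1, a kinase that phosphorylates SR proteins, had 1.89, 2.00 and 1.21 in shExosc8 arrays, against 0.661, 0.900 and 0.529 in shControl arrays. All shExosc8 values were higher, and the ratio was 2.44 (log2 fold change 1.29 ± 0.27, limma adjusted p = 0.0182). The kinase gene Prpf4b (-0.48), Sfswap (-0.56) and Luc7l, a partner of the U1 particle (-0.53), were lower, Prpf4b and Luc7l on 1 of 2 probes each.

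Of 54 probes of 38 core spliceosome genes, 0 were higher and 8 probes of 6 genes were lower, or 14.8%, against 13.1% of all tested probes lower, and the median log2 fold change was -0.29. The Sm protein genes Snrpg (-0.42 and -0.48), Snrpd3 (-0.44) and Snrpe (-0.38 on the called 1 of 2 probes) and the U2 component gene Sf3b5 (-0.51 and -0.41) were among them. Snrpg had 19.56, 20.08 and 19.98 in shExosc8 arrays, against 27.2, 26.0 and 26.4 in shControl arrays on the first of these probes. The groups were far apart relative to their spread (limma adjusted p = 0.0226). Of 14 probes of 13 nonsense-mediated decay genes 1 was lower, that of the exon junction gene Magoh (-0.44, adjusted p = 0.0246). Smg1 (-0.36), Casc3 (-0.32) and Rbm8a (-0.30) did not pass.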

How the data were processed

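Intensity values of 6 single-colour arrays were used. Per the file headers, the deposited intensity came background-subtracted from the scanner software Feature Extraction (version 10.7.3.1). The deposited series table holds the same intensities (377856 values, no difference), and the authors' log2 fold changes and p-values, for which the submitters' processing notes name limma; how they were normalized is not stated in the sources used. Coordinates are on mm9, per the file headers.

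Control spots (3671 of 62976) and spots flagged as non-uniform or outlying were dropped, spots of 1 probe were averaged, and 21 probes without a usable spot were left out. From log2 intensity each array's 75th percentile was subtracted, taken over the 21615 probes well above background on all 6 arrays (38.8%). Probes that were well above background on every array of 1 group or both were tested with limma 3.58.1 in R 4.3.3 (lmFit, eBayes, two-sided, Benjamini-Hochberg, threshold 0.05). A pair test used the within-array difference between probes of 1 name, both well above background on all 6 arrays. Both tests were tested on simulated data.

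Members and lists were chosen with earlier results of these data known. Named were genes with a differing pair, called probes, the 2 probes with the smallest p per role group, Srsf1 to Srsf12, Exosc8 and 4 genes per related list; other members named were chosen after their values were seen. The number of arrays, 3 per group, limits precision. Alternatives were the scaling, normexp (offset 50) with quantile normalization, the filter, 1 probe per gene, an intensity trend, leaving out arrays, and replicate or slide column as a block.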

Additional observations from a re-analysis of the deposited data

How the results depend on the processing

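The number of hnRNP and SR probes higher in shExosc8 cells was 0 in each setting run. The number lower was 2, where 27.8% of all tested probes were called. It was 11 with the percentile over all probes (37.8% of all tested), 4 with normexp and quantile normalization (28.1%), 8 with an intensity trend (32.6%), 0 with no filter on dim probes (3.07%), 0 with 1 probe per gene (29.9%) and 0 with slide column as a block (1.64%). On leaving out 1 array it was between 0 and 12 (11.5% to 43.2%), highest without shExosc8 replicate 3. It was 10 (37.3%) without that array and shControl replicate 2 together, a setting chosen after seeing the data. Of all called probes 52.8% were higher, and 35.4% with the percentile over all probes. The number of pairs that differed was 4 (7.23% of all pairs), 0 with slide column as a block (0%), 2 with the filter of the single-probe test (5.58%), and between 0 and 10 on leaving out 1 array (0.783% to 13.7%). With slide column as a block only the arrays of columns 2 and 3 bore on the group difference, so a call lost there says little. Beyond this, the smaller number of arrays or the other set of probes in some settings, the cause of these shifts was not tested. Single probes, Exosc8 included, were followed under the percentile over all probes, normexp with quantile normalization, leaving out arrays, and both blocks. Median centring, the filters, 1 probe per gene and the intensity trend were not part of this count. Of the values, 571 kept their sign and their side of the threshold and 44 without a call moved across 0. A further 32 passed newly and 13 lost their call. Only the called probes of Hnrnpa0, Srsf3 and Exosc8 had a call to lose, so most of the 571 were values without a call. Under the same settings, the 4 called pairs kept their call in 19 values and lost it in 25.

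With the replicate number as a block, 2 pairs differed (5.97% of all pairs), both of Hnrnpa3 (probe 2 with probes 5 and 6), and 2 probes were lower, of Hnrnpa0 and Hnrnpa3 (probe 2, adjusted p = 0.0345), while Srsf3 was lost (adjusted p = 0.0682). The numbers were not taken to pair the samples, as the labels state no pairing. Deviations of same-numbered arrays correlated at 0.05, 0.21 and 0.28 in replicates 1, 2 and 3. In replicates 2 and 3, but not in 1, the same-numbered shControl array was the one that the shExosc8 array correlated with best. The arrays give no read depth, and 4 of the 63 probes were too dim to test.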
